A study of Mus musculus with 10 samples.

Results

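The 9 genes described here build, link and turn over the actin filaments of T cells. They are the refilin gene Rflnb, the filamin gene Flna, the actin genes Actb and Actg1, the thymosin genes Tmsb4x and Tmsb10, the profilin gene Pfn1, the cofilin gene Cfl1 and the coronin gene Coro1a. They are 9 of the 55809 gene rows in the count files, and all 9 were among the 16363 tested rows, whose counts averaged 10 or more. Rflnb was chosen by its normalized counts, because these were higher in R26-TIR1(F74G) mice, and Actb and Tmsb4x by their mean counts, because they were the most abundant rows. The other 6 were chosen as filamin and actin regulators.

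RNA was sequenced from regulatory T (Treg) cells that were taken from spleen and lymph nodes. The mice carried the Foxp3-AID allele, in which an auxin-inducible degron (AID) is fused to Foxp3, the transcription factor that defines Treg cells. The 4 R26-WT mice kept an unmodified ROSA26 locus. The 6 R26-TIR1(F74G) mice carried at ROSA26 the mutated plant F-box protein TIR1(F74G), which with the auxin analog 5-ph-IAA marks the fusion protein for degradation. Both groups received 5-ph-IAA for 14 days, so the controls share the Foxp3 fusion and the drug and differ in TIR1(F74G). Per the study's methods, the TIR1 allele is driven by the CAG promoter behind a loxP-Stop-loxP cassette, which is opened by an iCre made from the Foxp3-AID allele itself, and it also encodes mCherry. Loss of Foxp3 protein, any inflammation that follows it, presence of TIR1(F74G) and mCherry, and any sort by mCherry cannot be told apart here. The folder name in the file headers describes the mice as male. In males, hemizygous for the X-linked Foxp3 gene, all Treg cells carry the fusion. For other experiments the study chose heterozygous females, to avoid possible effects of mild inflammation in hemizygous males. The study's reporting form lists newborn and young adult mice for the whole study, without saying which age these libraries had.

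Actin exists as monomers and as filaments, and T cells reshape the filaments when they migrate, touch other cells and divide. Thymosins hold monomers in reserve and profilin feeds them to growing ends, while cofilin severs old filaments and coronin 1A acts on filament turnover and branching. Filamin A crosslinks filaments and ties them to integrins, and refilin B binds filamin and favours filament bundles.

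The counting kept only read pairs with a mapping quality of at least 30, so sequence that members share with each other or with other places bears on what each count holds. The paired sequences below are shown because they differ in how far a read can tell the members apart. Each is reference coding sequence of GRCm39 (GENCODE M39), 5′ to 3′, and capitals mark the bases at which the pair differs. The complete coding sequences of the 2 thymosins were 70.4% identical over 135 bases, with the differences spread along the whole length.
Tmsb4x: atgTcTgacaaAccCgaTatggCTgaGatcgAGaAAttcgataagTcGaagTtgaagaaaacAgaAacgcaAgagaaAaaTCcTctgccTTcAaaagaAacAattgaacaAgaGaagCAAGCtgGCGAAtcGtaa
Tmsb10: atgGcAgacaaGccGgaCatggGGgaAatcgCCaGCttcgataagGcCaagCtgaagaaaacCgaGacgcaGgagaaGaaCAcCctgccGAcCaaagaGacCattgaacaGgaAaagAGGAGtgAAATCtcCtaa
The coding sequences of the 2 actins were 88.7% identical over 1128 bases. The first 90 bases hold 16 differences, among them an uninterrupted run of identical bases in the middle of the stretch.
Actb: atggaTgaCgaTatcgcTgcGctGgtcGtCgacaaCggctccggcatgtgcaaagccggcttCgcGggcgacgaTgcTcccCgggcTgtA
Actg1: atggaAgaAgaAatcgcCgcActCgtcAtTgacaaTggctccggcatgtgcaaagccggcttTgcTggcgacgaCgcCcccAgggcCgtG

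Whole transcripts were then compared with the rest of the genome in stretches of 50 bases. Of the stretches of Actg1, 85.5% also occurred elsewhere in GRCm39, against 59.2% for Tmsb10, 25.4% for Cfl1, 15.4% for Actb, 4.75% for Flna and 0.172% for Rflnb. No stretch of Tmsb4x, Pfn1 or Coro1a occurred elsewhere. Most of the Actg1 and Tmsb10 transcripts can therefore be read at more than one place, and counts of these genes are uncertain as levels.

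Rows for near copies did take up counts. The row Gm12715 had a mean of 3071 read pairs per library and shared 90.2% of its stretches with Actg1, whose own row had a mean of 1438. Gm8399 shared 63.4% of its stretches with Actg1 and had a mean of 1383 read pairs, and Actb and Lrrc58 shared 30 and 9 stretches with Actg1. Gm3788 shared 75.9% with Tmsb10 and had a mean of 11674. For Cfl1 the rows with the most counts were Arrb2 with 6 shared stretches, Gm6180 with 187 and a mean of 7008, and Snx32 with 619. Snx32 overlaps Cfl1 and covers 16.5% of its exon bases, and read pairs in the overlap were not counted. For Actb the rows with the most counts were Gm12715 and Actg1 with 30 shared stretches each and Lrrc58 with 179, while Rflnb shared 2 stretches each with Atg10 and Plod1. Gm20570 and Gm19248 shared 9 and 5 stretches with Tmsb10. A transcript of Rnf167 in the M39 annotation runs through Pfn1 at its own place and holds 1293 of its stretches.

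**Figure D1:**
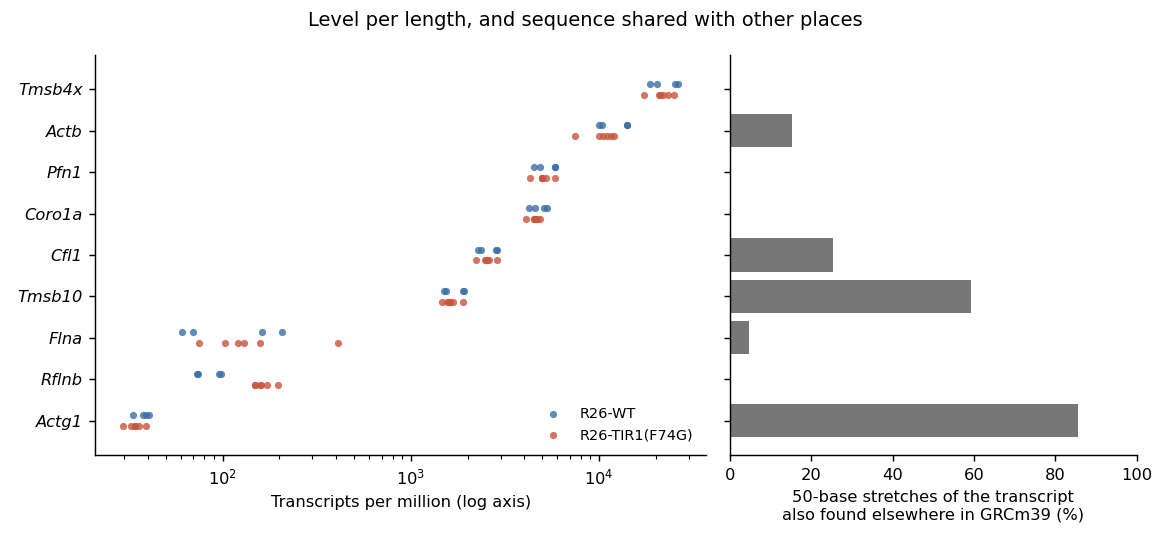
Left, TPM (length-corrected level, log axis) of the 9 genes in each library, blue for R26-WT and red for R26-TIR1(F74G). Right, the percentage of each transcript's 50-base stretches that occur at another place in GRCm39, from 0 for Tmsb4x, Pfn1 and Coro1a to 85.5% for Actg1.

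Libraries held 24158699 to 54795718 counted read pairs. Levels per length are given as TPM, counts divided by exon length and scaled to a common total in each library. The 9 genes made up 2.66% to 4.24% of the counts in R26-WT and 2.31% to 3.75% in R26-TIR1(F74G). The Treg list (Foxp3, Il2ra, Ctla4, Ikzf2, Tnfrsf18, Cd4, Cd3e, Cd3g) summed to 3459 to 3589 TPM in R26-WT and 3261 to 3504 in R26-TIR1(F74G). None of its 8 genes was called by the DESeq2 test used below. That test called 1.74% of all genes, 1.4% as higher and 0.336% as lower. A B cell list summed to 749 to 964 TPM in R26-WT and 557 to 657 in R26-TIR1(F74G), nearly all of it Ighm, which was lower, while Pax5 held 3 counts or fewer in every library. A proliferation list rose, with 8 of its 10 genes called higher, against 1.4% of all genes. Its summed level was 59.2 to 114 TPM in R26-WT and 137 to 250 in R26-TIR1(F74G). Of the naive or resting T cell list, 1 of 6 genes was called higher. The summed level of the 6 overlapped between the groups, at 7730 to 8643 TPM in R26-WT and 7838 to 9027 in R26-TIR1(F74G). The myeloid list, the CD8 and NK cell list, the stromal and endothelial list, the erythroid list and the platelet list had no gene called. Tested were 3 of 7 myeloid genes and 5 of 6 CD8 and NK cell genes. In each of the stromal and endothelial, erythroid and platelet lists 1 of 6 was tested. The CD8 and NK cell list summed to 60.0 to 87.7 TPM over the 10 libraries. The stromal and endothelial list summed to 64.3 to 145 TPM, with Pecam1 its highest gene at 103. The platelet list summed to 0.231 to 1.26 TPM, with Pf4, Ppbp, Gp1bb and Treml1 at 3 counts or fewer.

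Per length, the order of the members ran from the monomer-holding thymosin to the minor actin row. Tmsb4x averaged 22030 ± 2927 TPM over the 10 libraries (SD, n = 10) and Actb 11093 ± 1968. Pfn1 followed at 5137 ± 560 and Coro1a, the coronin of blood cells, at 4641 ± 358. Pfn1 was above Coro1a in 10 of 10 libraries although their ranges overlapped, with a ratio of 1.05 to 1.21. Cfl1 averaged 2556 ± 247 TPM and Tmsb10 1665 ± 176. The filamin and refilin genes were far lower, at 150 ± 103 TPM for Flna and 132 ± 43.4 for Rflnb, and Flna was the higher of them in 3 of 10 libraries. Actg1 was the lowest at 35.7 ± 3.40 TPM, a level that rests on the small part of its sequence found nowhere else. Every other neighbouring pair in this order held its order in all 10 libraries with ranges that did not overlap. Tmsb4x and Actb, chosen as the most abundant of all rows by mean read pairs, held 1.03% and 1.02% of all counts. The next row, the class I histocompatibility gene H2-D1, held 0.813%.

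Rflnb encodes refilin B and lies at chr11:75910020-75918608 on the minus strand (GRCm39), with no exon base shared with another gene row. Its normalized counts, which are counts divided by DESeq2 size factors, were 4824, 4571, 4237 and 4053 in the 4 R26-WT libraries. In the 6 R26-TIR1(F74G) libraries the lowest was 7349, the median 8217 and the highest 8939. The groups did not overlap, which the choice of Rflnb already used (2.37% of all genes tested did not overlap). The mean was 4421 ± 344 (SD, n = 4) in R26-WT and, 1.86-fold higher, 8213 ± 575 in R26-TIR1(F74G) (SD, n = 6). On the log2 scale the difference was 0.89 (SE 0.096). Since Rflnb was chosen for this difference, these values are a description and no test of it is given. Leaving out each library in turn moved the log2 fold change between 0.86 and 0.94. In bulk samples, a change in the number of cells that express a gene and a change in RNA per cell cannot be told apart. The proliferation genes were higher in the same 6 libraries and the B cell sum lower, and their part in the Rflnb difference was not tested.

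**Figure D2:**
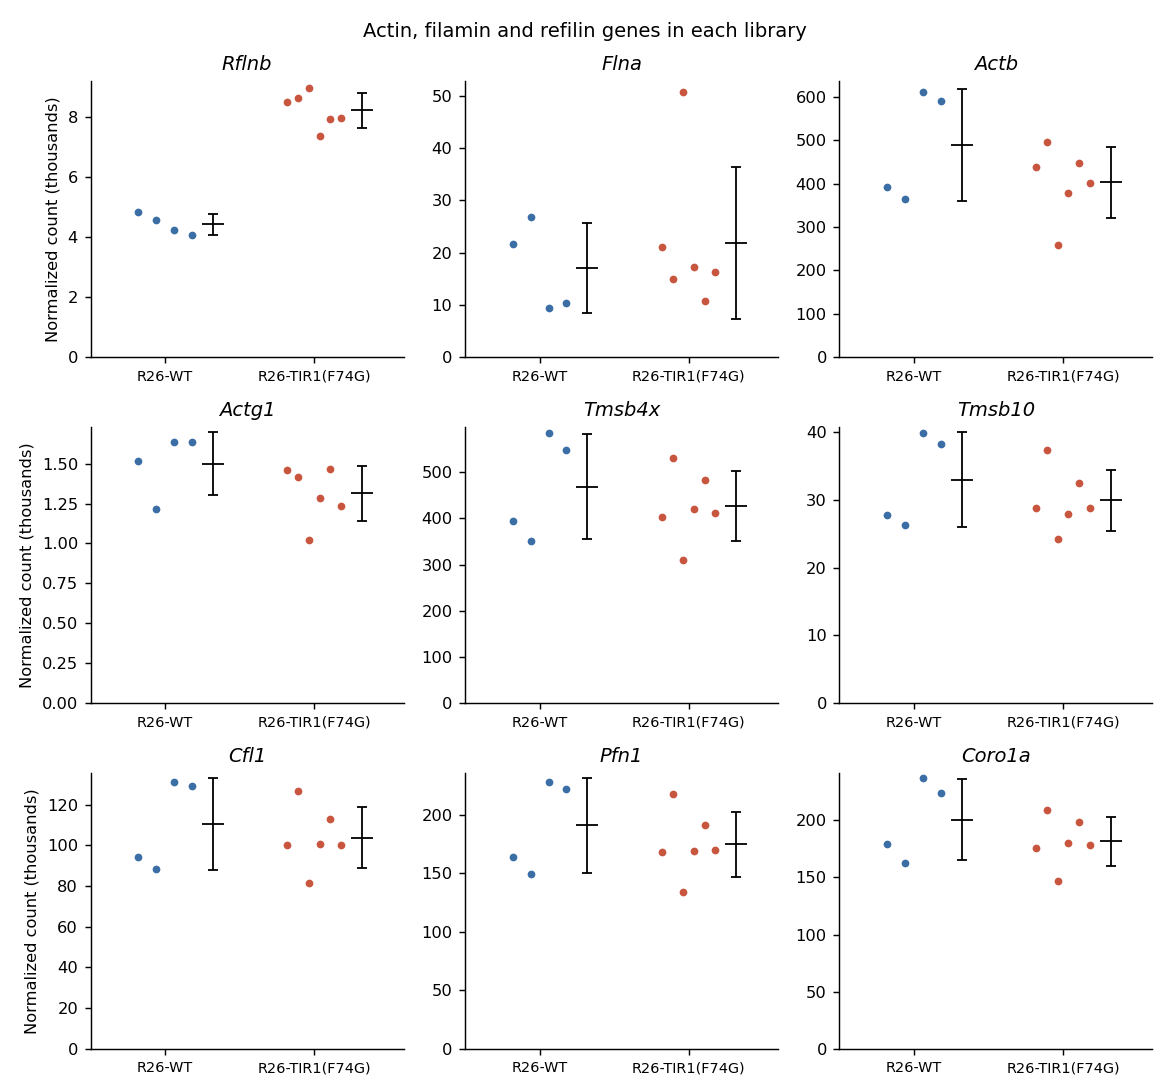
Normalized counts of each gene (axis divided by 1000) in each library, as points for R26-WT (n = 4, blue, replicates 1 to 4 from left) and R26-TIR1(F74G) (n = 6, red, replicates 5 to 10 from left), with the mean and SD beside them. Rflnb, chosen for its higher counts in R26-TIR1(F74G), has no overlap between the groups, the other 8 genes overlap, and 1 red point for Flna stands at 50701.

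The bases before the Rflnb start are shown because it is the member whose level differed most between the groups. The window chr11:75918629-75918878 (GRCm39, minus strand) holds the 250 bases upstream of the start of its reference transcript, and 76.4% of them are G or C.
Rflnb: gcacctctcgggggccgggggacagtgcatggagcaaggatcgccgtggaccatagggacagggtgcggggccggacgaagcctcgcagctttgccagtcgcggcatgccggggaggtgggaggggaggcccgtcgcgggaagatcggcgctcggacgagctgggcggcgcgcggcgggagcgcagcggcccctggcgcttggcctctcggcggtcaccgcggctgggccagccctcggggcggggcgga
It held the GC box (GGGCGG, either strand) 3 times. The GC box occurred in 7 of the 9 members' windows and in 35.4% of 21747 windows of the same length before annotated genes. The forkhead core (TGTTTAC, either strand), which forkhead factors such as Foxp3 can bind, occurred in 0 of the 9 windows and in 2.83% of all windows. The TATA box (TATAAA, either strand) occurred in 0 of 9 and in 12.8%. These are matches of letters and show no binding.

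Of the 8 members other than Rflnb, 0 passed the test between R26-TIR1(F74G) and R26-WT (DESeq2 two-sided Wald test with Benjamini-Hochberg adjustment over all tested genes given a p-value, adjusted p under 0.05). In the same fit 1.74% of all genes were called, 1.4% as higher and 0.336% as lower. At an unadjusted DESeq2 p under 0.05 the count was also 0 of 8, against 6.86% of all genes, and the edgeR quasi-likelihood test called 0 of 8, where it called 0.373% of all genes. The normalized counts of the groups overlapped for all 8, where 2.37% of all genes had no overlap. The log2 fold changes were below 0 for 7 of the 8, against 8161 of all 16363 genes tested. That of Cfl1, 1 of the 7, was 0.00083 without R26-WT replicate 3. The values of the 8 ran from −0.28 for Actb to 0.36 for Flna, with a DESeq2 adjusted p of 0.99996 for each. A miss of the threshold does not show equal levels, and the 95% intervals below give the differences that these libraries leave possible.

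**Figure D3:**
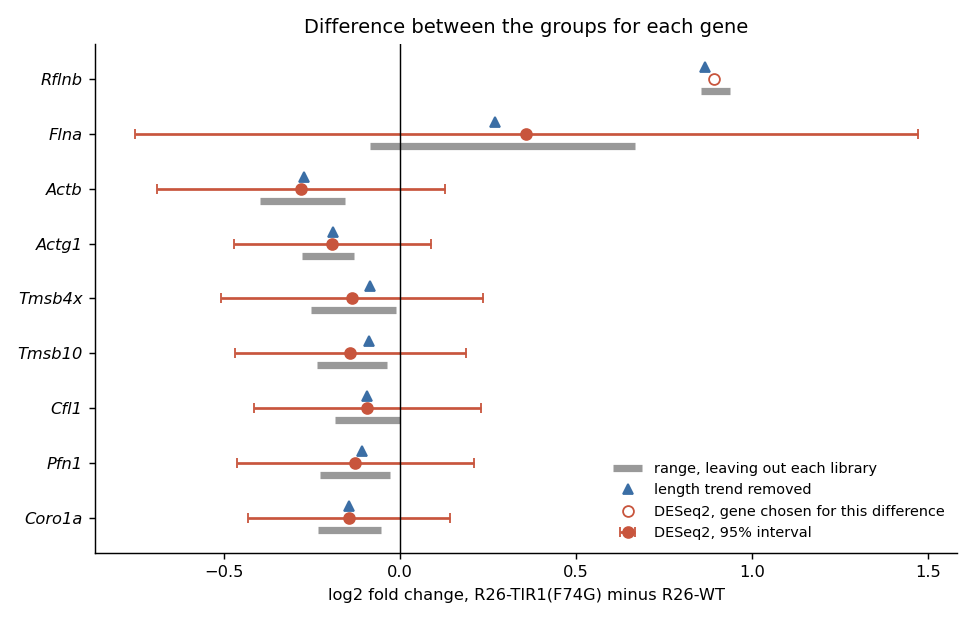
log2 fold change (R26-TIR1(F74G) minus R26-WT) of each gene from DESeq2 (red), with the 95% interval for all but Rflnb, the value after each library's length trend was removed (blue triangle) and the range when each library was left out in turn (grey). Rflnb, the gene chosen for this difference, is drawn at 0.89 without an interval, and the intervals of the other 8 genes include 0.

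Flna encodes filamin A, the binding partner of refilins, and lies at chrX:73267067-73293426 (minus strand). Its normalized counts in R26-WT replicates 1 to 4 were 21597, 26832, 9339 and 10316. In R26-TIR1(F74G) the lowest was 10841, the median 16721 and the highest 50701, in replicate 7. Flna varied more between libraries of one group than any other member, with a coefficient of variation of 50.4% in R26-WT and 66.5% in R26-TIR1(F74G), and the highest library held 5.43 times the lowest. The 4 R26-WT libraries averaged 17021 ± 8586 (SD) and the 6 R26-TIR1(F74G) libraries 21837 ± 14519 (SD). Their log2 difference of 0.36 (SE 0.57, 95% interval −0.75 to 1.47) was within that spread. It was −0.084 without R26-TIR1(F74G) replicate 7. The ratio of Flna to Rflnb per length ranged from 0.507 to 2.18, with R26-WT replicate 2 and R26-TIR1(F74G) replicate 7 at the upper end.

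The actin genes gave lower means in R26-TIR1(F74G) with overlapping groups. Actb encodes the cytoplasmic beta actin and lies at chr5:142888870-142892509 (minus strand). Its normalized counts in R26-WT were 391560, 365578, 610807 and 590331. In R26-TIR1(F74G) they ran from 259280 through a median of 419381 to 496694. The R26-WT libraries thus formed 2 lower and 2 higher values, and the R26-TIR1(F74G) libraries lay below the higher pair. The log2 fold change was −0.28 (SE 0.21, 95% interval −0.69 to 0.13). Actg1, which encodes the cytoplasmic gamma actin, lies at chr11:120236516-120239368 (minus strand) and shares 5.53% of its exon bases with other rows. It had 1515, 1217, 1633 and 1635 normalized counts in R26-WT and 1023 to 1464 in R26-TIR1(F74G), around a median of 1350. Its log2 fold change was −0.19 (SE 0.14, 95% interval −0.47 to 0.09). Its copy rows Gm12715 and Gm8399 gave −0.058 and −0.062 and did not pass the DESeq2 test.

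The monomer-binding members followed the same pattern over the libraries. Tmsb4x encodes thymosin beta 4 and lies at chrX:165990089-165992311 (minus strand). It had 393699, 350932, 584976 and 547425 normalized counts in R26-WT, and 310115 to 531940 in R26-TIR1(F74G) with a median of 416655. Replicates 3 and 4 of R26-WT were again the high pair. The log2 fold change was −0.14 (SE 0.19, 95% interval −0.51 to 0.24). Tmsb10, which encodes thymosin beta 10, lies at chr6:72934330-72935731 (minus strand) and had 27780, 26240, 39834 and 38226 normalized counts in R26-WT, and 24224 to 37388 in R26-TIR1(F74G) with a median of 28853. These groups overlapped as well. Its log2 fold change was −0.14 (SE 0.17, 95% interval −0.47 to 0.19), and its copy row Gm3788 gave −0.11. Pfn1, which encodes profilin 1, lies at chr11:70542676-70545470 (minus strand), and its normalized counts were 164084, 148973, 228395 and 222162 in R26-WT and 134033 to 217787 in R26-TIR1(F74G) around a median of 169242. Its log2 fold change was −0.13 (SE 0.17, 95% interval −0.46 to 0.21).

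Cfl1 encodes cofilin 1, which severs filaments, and lies at chr19:5540483-5545229 (plus strand). It had 94140, 88394, 131151 and 129075 normalized counts in R26-WT and 81766 to 126699 in R26-TIR1(F74G) around a median of 100677, with a log2 fold change of −0.092 (SE 0.16, 95% interval −0.41 to 0.23). Its copy row Gm6180 gave −0.10. Coro1a encodes coronin 1A and lies at chr7:126298945-126306959 (minus strand), where 0.934% of its exon bases overlap Bola2. It had 179355, 162283, 237301 and 223670 normalized counts in R26-WT and 147251 to 208651 in R26-TIR1(F74G) around a median of 179384, with a log2 fold change of −0.14 (SE 0.15, 95% interval −0.43 to 0.14). As for Actb, R26-WT replicate 3 was the highest library and R26-TIR1(F74G) replicate 7 the lowest for both genes.

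This shared order ran alongside the way counts moved with gene length in each library. The length slope of a library is the change of log2 normalized count, relative to the mean over libraries, per doubling of exon length, over the 12618 genes whose counts averaged 50 or more. It was 0.05, 0.11, −0.14 and −0.11 in R26-WT replicates 1 to 4. In R26-TIR1(F74G) it ran from −0.087 in replicate 9 to 0.17 in replicate 7. Flna, the longest member with 9457 exon bases, was highest in the library with the highest slope and lowest in the library with the lowest slope, R26-WT replicate 3. Of the 7 members other than Rflnb and Flna, which have 1276 to 2844 exon bases, 7 were lowest in R26-TIR1(F74G) replicate 7 and 6 were highest in R26-WT replicate 3, with Actg1 highest in R26-WT replicate 4. Removing each library's smooth trend on length narrowed the range of Tmsb4x from 1.89-fold to 1.37-fold between the highest and the lowest library, of Tmsb10 from 1.64-fold to 1.22-fold and of Flna from 5.43-fold to 3.31-fold. Actb narrowed less, from 2.36-fold to 2.06-fold. Rflnb, with 3512 exon bases, then ran from 4164 to 4821 normalized counts in R26-WT and from 7138 to 8884 in R26-TIR1(F74G). It was chosen for being higher in R26-TIR1(F74G), so this separation is a description and no test of the difference. The RNA integrity of single libraries is not given in the sources used here, and its part in the slope was not tested.

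**Figure D4:**
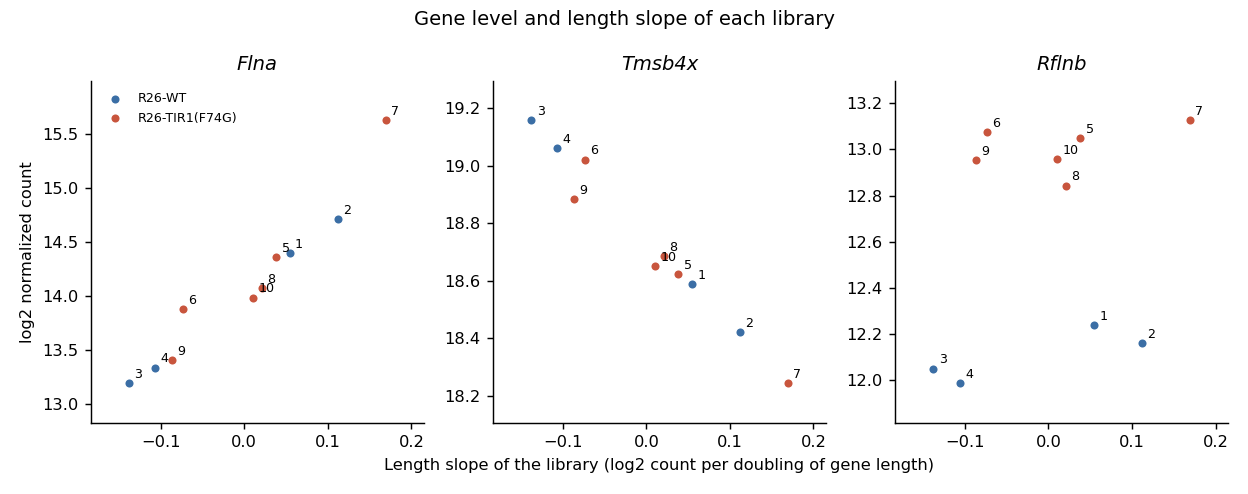
log2 normalized count of Flna, Tmsb4x and Rflnb against the length slope of the library (log2 count per doubling of gene length), 1 point per library with its replicate number, blue for R26-WT and red for R26-TIR1(F74G). Flna climbs and Tmsb4x falls with the slope in both groups. The Rflnb values of the groups do not overlap, which the choice of Rflnb already used.

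Ratios within a library do not depend on how libraries are scaled, so 3 pairs of members with related roles were compared as log2 ratios of their counts (exact permutation test over all 210 splits of 4 against 6, two-sided, smallest possible p 0.0048, adjusted over the 3 pairs). These ratios are not corrected for gene length. The 2 actins had a log2 ratio of Actg1 to Actb of −8.32 ± 0.25 in the 4 R26-WT libraries (mean ± SD) and −8.24 ± 0.16 in the 6 R26-TIR1(F74G) libraries, a difference of 0.08 with an exact p of 0.514 and an adjusted p of 0.771. With the counts of Gm12715 and Gm8399 added to Actg1 the difference was 0.18 and the exact p 0.181. The 2 thymosins had a log2 ratio of Tmsb10 to Tmsb4x of −3.82 ± 0.06 and −3.83 ± 0.08, a difference of −0.0072 with an exact p of 0.876. The log2 ratio of Cfl1, which takes filaments apart, to Pfn1, which supplies new subunits, was −0.78 ± 0.023 in R26-WT and −0.75 ± 0.023 in R26-TIR1(F74G). The difference of 0.035 had an exact p of 0.0476 and an adjusted p of 0.143, so it did not pass the correction, and it was 0.019 with an exact p of 0.410 after the length trend was removed.

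The wider actin pathway was followed in 13 lists of 126 genes ordered by role, of which 115 were tested. Besides Rflnb, 1 gene rose and 1 fell among the 106 tested genes that are not members (DESeq2, adjusted p under 0.05), which is 1.89% against 1.74% of all genes. Diaph3, a formin that grows unbranched filaments and serves in cell division, rose from a mean of 42.3 to 97.5 normalized counts (DESeq2 log2 fold change 1.21, SE 0.36, adjusted p 0.047), at a level of only 0.957 TPM. The proliferation genes were higher in the same libraries, and their part in this difference was not tested. Rhoh, a GTPase-related protein of blood cells that takes part in T cell receptor signalling, fell from 28740 ± 1537 normalized counts (SD, n = 4) to 23207 ± 901 (SD, n = 6), with a DESeq2 adjusted p of 0.0035 and a log2 fold change of −0.31 (SE 0.074). The groups did not overlap for either gene, the only 2 of the 106 without overlap, where 2.37% of all genes tested had none. With the edgeR quasi-likelihood test the adjusted p was 0.289 for Diaph3 and 0.121 for Rhoh, so neither was called, and Rhoh was not called after the length trend was removed.

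**Figure D5:**
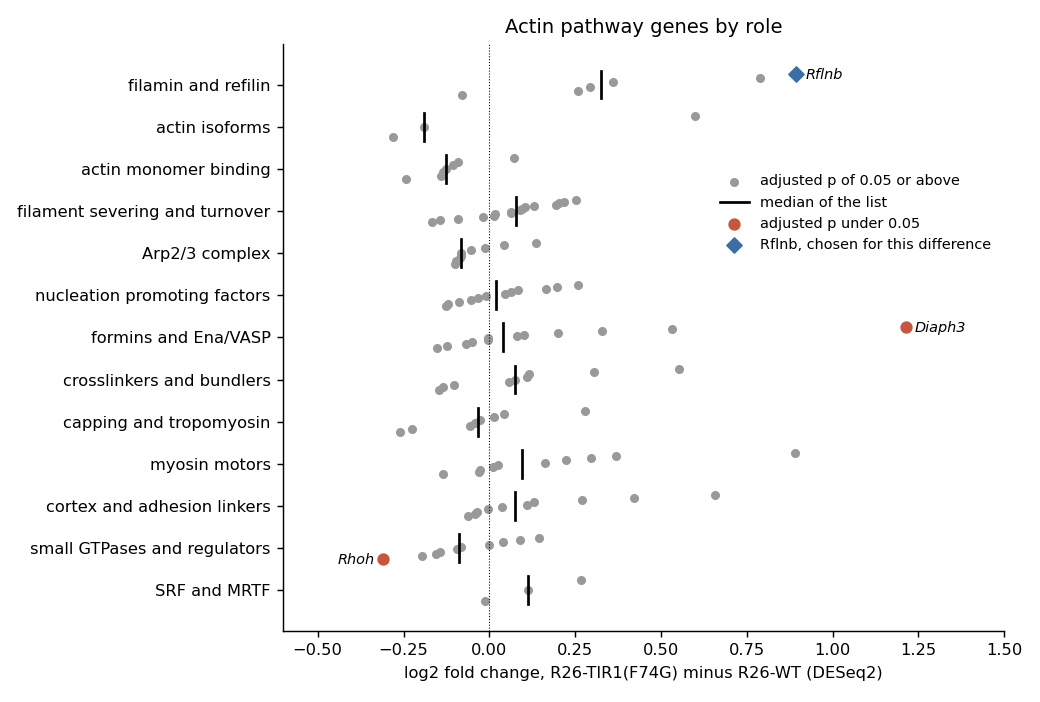
DESeq2 log2 fold change (R26-TIR1(F74G) minus R26-WT) of the 115 tested actin pathway genes in 13 lists, grey below the threshold and red past it, with the median of each list as a black bar. Diaph3 at 1.21 and Rhoh at −0.31 are past the threshold, Rflnb is drawn as a blue diamond, and most other genes lie near 0.

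In the filamin and refilin list, 5 genes besides Rflnb were tested. Values above 0 were found for 4 of the 5, where 50.1% of all genes tested had them. The median log2 fold change of the 5 was 0.29, that of the 106 pathway genes without the members 0.031 and that of all genes tested 0.00063, and none of the 5 passed the test. When R26-TIR1(F74G) replicate 7 was left out, which had the top Flna value and length slope, 2 of the 5 were above 0 and their median was −0.084. The partner of Rflnb, the second refilin gene Rflna, was barely counted, at 0.241 TPM, and Flnc was at 0 counts in all libraries, so Rflnb was the refilin gene with a measurable level in these cells. The muscle actin genes Acta1, Acta2 and Actc1 were below the count minimum.

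In each of the other lists the gene with the highest level per length did not pass the test. Among nucleators these were Arpc2, a subunit of the Arp2/3 complex that starts branches, at 1564 TPM and a log2 fold change of −0.10 (SE 0.14), and Brk1, a subunit of the WAVE complex that activates it, at 511 TPM and −0.12 (SE 0.18). Among proteins acting on filament ends they were Evl of the Ena/VASP family at 499 TPM and −0.051 (SE 0.072), and the capping subunit Capzb at 667 TPM and −0.026 (SE 0.16). None of the 9 Arp2/3 genes, 12 nucleation promoting factors or 8 capping and tropomyosin genes tested passed the threshold, which 1.74% of all genes passed.

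The bundling protein calponin 2 gene Cnn2 stood at 1980 TPM with −0.15 (SE 0.15), and the myosin light chain gene Myl12a at 274 TPM with −0.13 (SE 0.19). Itgb7, an integrin chain that serves gut homing, stood at 1752 TPM with −0.043 (SE 0.098). Arhgdib, which holds small GTPases inactive, stood at 2971 TPM with −0.20 (SE 0.17). Srf, a transcription factor that acts on actin genes, stood at 66.4 TPM with 0.11 (SE 0.11). An unadjusted DESeq2 p under 0.05 was found for 3 of the 106 tested pathway genes that are not members, against 6.86% of all genes. They were Diaph3, Rhoh and the integrin chain gene Itgb1, named after its value was seen, with a log2 fold change of 0.66 (SE 0.28) and a DESeq2 adjusted p of 0.448.

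Genes whose pattern over the libraries was most like that of Rflnb were sought after the group means had been taken out, so that the difference used to choose Rflnb played no part. Pearson's r of log2 normalized counts over the 10 libraries was computed for 10169 genes as a description. It was highest for Fbxo30 (0.945), Zfp667 (0.935), Tbrg4 (0.919), Filip1l (0.909) and Prcc (0.904). Filip1l, a gene related to the filamin-interacting FILIP1, stands in the filamin list, and its own log2 fold change was 0.26 (SE 0.15, DESeq2 adjusted p 0.933). It was lowest for Hmcn2 (−0.938), Naaa (−0.903), Mplkip (−0.894), Tmco6 (−0.889) and Ccdc138 (−0.889). Among members Flna had an r of 0.694, place 368 of 10169, and the other 7 had values from −0.553 for Coro1a to −0.380 for Actg1. The 10 points of each correlation share the size factors and length slopes of their libraries.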

How the data were processed

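Total RNA of Treg cells from 10 mice (4 R26-WT, 6 R26-TIR1(F74G)) was amplified with SMART-Seq v4 without molecular identifiers, so read pairs copied by PCR count more than once and counting error covers only a part of the technical error. The authors deposited raw counts of read pairs, summed by gene name and with 1 file for each library. Per the file headers the counter was featureCounts 2.1.1 with the GENCODE M30 annotation (GRCm39), and it took primary pairs whose mates share a chromosome and whose mapping quality is 30 or more, without strand. Pairs that overlap several genes were left out. The submitters' processing notes list Bowtie2 with no role, and the study's methods name STAR for alignment.

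From these counts, genes whose counts averaged 10 or more were tested with DESeq2 1.42.0 (R 4.3.3), genotype as the only term, as in the study's methods, with Benjamini-Hochberg adjustment. Alternatives were edgeR 4.0.16 quasi-likelihood, limma 3.58.1 voom with quality weights, other scalings, no filter, removal of trends on length and GC content (mgcv 1.9.3), and leaving out each library. Tests were first run on simulated counts. TPM used the exon lengths in the files. Intervals are 1.96 SE on either side. Sequences, GC content and 50-base stretches come from GRCm39 and GENCODE M39, in which windows and stretches follow the lowest-numbered consensus coding transcript.

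Members, gene lists and tests were chosen with earlier results of these data known. The genes named are the members, called pathway genes, the most abundant gene of each list, the 5 highest and 5 lowest correlations with Rflnb, and for each member up to 3 rows with the most counts that share stretches with it. Other genes (Gm8399, Itgb1, Actg2, H2-D1, untested genes of the lists and markers of other cells) were named after their values were seen. The study states in general that controls were littermates matched for sex, but not which of these mice share a litter, so litter was not a term and p-values measure the spread between these samples. A few items of the lists and windows are not reported here.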

Additional observations from a re-analysis of the deposited data

Results flagged for a closer look

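In R26-TIR1(F74G) replicate 7, Flna had 50701 normalized counts, far from the other 5 libraries of its group, which lay between 10841 and 21015. The gap to the nearest library took up 0.745 of the range of the group. Of 26 groups of values examined in this way, 1 had such a library, where chance gives 1.3. The same library had the highest length slope (0.17), and its Flna value was 38013 after the length trend was removed, still the highest of the 10. It also had the highest sums of the proliferation (250 TPM), stromal and endothelial (145), myeloid (7.73) and platelet (1.26) lists. It was not the highest for the other marker lists, and the part of these differences in its Flna value was not tested.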

How the results depend on the processing

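No paired analysis was possible because R26-WT holds replicates 1 to 4 and R26-TIR1(F74G) replicates 5 to 10. The count of 0 called members among the 8 other than Rflnb held under all 17 alternatives, and the Rflnb log2 fold change stayed between 0.86 and 0.94 when each library was left out. All genes called fell from 284 to 61 with edgeR and 80 with limma, rose to 390 with the length trend removed and 397 with length and GC trends removed, and ran from 187 to 346 when each library was left out, lowest without R26-WT replicate 4. Pathway genes called other than Rflnb fell from 2 (1 higher, 1 lower) to 0 with edgeR and limma. Without the filter 0 were higher, and with trends on length, or on length and GC, removed 0 were lower. When each library was left out they ran from 0 to 2, with 0 to 1 higher and 0 to 1 lower. Diaph3 was lost without R26-WT replicates 1, 3 or 4 or R26-TIR1(F74G) replicates 5, 7, 8 or 9, and Rhoh without R26-WT replicates 3 or 4. The Flna log2 fold change turned from 0.36 to −0.084 without R26-TIR1(F74G) replicate 7 (range −0.084 to 0.67), and that of Cfl1 from −0.092 to 0.00083 without R26-WT replicate 3 (range −0.19 to 0.00083). None of the fold changes of the 8 members passed the test with any library left out. The log2 fold change ran from −0.40 without R26-WT replicate 2 to −0.15 without R26-WT replicate 3 for Actb, and between the same omissions from −0.25 to −0.011 for Tmsb4x, −0.24 to −0.037 for Tmsb10, −0.23 to −0.027 for Pfn1 and −0.23 to −0.052 for Coro1a. That of Actg1 ran from −0.28 without R26-WT replicate 2 to −0.13 without R26-TIR1(F74G) replicate 7. The Actg1 to Actb difference ran from 0.0031 without R26-WT replicate 3 to 0.18 without R26-WT replicate 1. The Tmsb10 to Tmsb4x difference ran from −0.037 to 0.019, above 0 without R26-WT replicate 2 (0.019), R26-TIR1(F74G) replicate 8 (0.011) or 9 (0.0067). The Cfl1 to Pfn1 difference was 0.019 with the length trend removed (exact p 0.410) and ran from 0.028 to 0.046 when each library was left out (exact p 0.0238 to 0.119). The causes of these changes were not tested. The 4 and 6 libraries differ in length slope, and differences of a member within the intervals given above remain possible. The smallest difference that could be detected was not tested.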
